A study of Homo sapiens with 12 samples.

Results

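Keratins, kallikreins and the genes of the cornified envelope were followed through the transit of breast cells across narrow microchannels. Members were the rows of the MCF-10A table whose gene name starts with KRT, KLK, SPRR, LCE or SERPINB, the gene *A2ML1*, and the genes that the same table's enrichment list gives under the keratinization term of the Gene Ontology. Rows of the MDA-MB-231 and LM2 tables with these names, or for these genes, were added. The rule found 33 genes among the 3090 genes of the 3 tables. Of these, 32 were listed in MCF-10A and 2 in MDA-MB-231, with *HRNR* in both, and 0 in LM2. In MCF-10A, 26 members came from their names, 21 from the ontology term and 15 from both. The term alone brought 6 genes, *CDC42*, *DSG1*, *DSG4*, *HRNR*, *PRSS8* and *SPINK6*.

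RNA was sequenced from 12 samples of 3 cell lines, with 2 samples of transited and 2 of untransited control cells for each line. MDA-MB-231 is a breast cancer line, MCF-10A a breast epithelial line that is not malignant, and LM2 a lung metastatic variant of MDA-MB-231. The channels measured 5 µm in width, 5 µm in height and 150 µm in length, and cells were driven through them at 7 to 33 cmH2O and collected for RNA extraction. MCF-10A was cultured with horse serum, insulin, epidermal growth factor, cholera toxin and hydrocortisone, and MDA-MB-231 and LM2 with fetal bovine serum, in transited and control cells alike. The study's methods call the 2 samples of a group biological replicates. The reads behind each library, computed from the deposited counts, FPKM and gene lengths, ran from 29978695 to 53584754. For MCF-10A, 29978695 and 35494737 belonged to the transited samples and 36123663 and 46436989 to the control samples. These totals did not come out as whole numbers, so a scaling by the authors is possible.

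Keratins are the intermediate filament proteins of epithelia and assemble as pairs of a type I and a type II chain. In stratified epithelia, cells that leave the basal layer change their keratins and lay down a cornified envelope, in which small proline-rich (SPRR) and late cornified envelope (LCE) proteins are crosslinked by transglutaminases. Kallikreins are secreted serine proteases, several of which cut the desmosomes that hold the outer cells together, and they are held in check by inhibitors such as the SPINK proteins.

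Transited MCF-10A cells had lower mean levels of all 32 members than control cells, and 26 of them had no read in either constriction library. The 6 members with reads after transit were *KRT16*, *KLK7*, *KLK10*, *PRSS8*, *SPRR2D* and *KLK6*. With the authors' size factors, both constriction libraries lay below both control libraries for 32 of 32 members. The same was found for 94.5% of the 2680 genes listed in this line, which is also the share with a lower mean, and 0 reads in both constriction libraries were found for 89.6% of them. The table holds only genes that the authors' comparison of these libraries selected. The members' direction and p-values were therefore fixed in part by that choice, and nothing is read from them or from the number called. In edgeR's quasi-likelihood test, run on deposited counts, 20 of 32 members had an adjusted p under 0.05, all of them lower, beside 86.9% of all listed genes. All 20 were genes with 0 reads after transit. With the replicate number as a block, 16 members passed, and 54.6% of the listed genes were called lower. The number of members called was 0 without constriction replicate 1, 0 without constriction replicate 2, 1 without control replicate 1 and 2 without control replicate 2. Over all 2680 listed genes the numbers in these fits were 0, 0, 2 and 4. With TMM factors in place of the authors' size factors, and with limma on log2(normalised count + 10), 0 members and 0 of all listed genes were called. TMM factors were computed from the listed genes alone, 94.5% of which had lower means, so results with them depend on the selection too. In the fits with 0 calls, 26 to 31 members had an unadjusted p under 0.05, beside 2054 to 2657 of the listed genes. Means of all 32 members stayed lower with TMM factors, where the groups overlapped for *KRT16*, *KLK10* and *PRSS8* and not for the other 29, beside 96.2% of all listed genes without overlap. In bulk RNA, fewer cells of a type and less RNA per cell cannot be told apart.

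The median mean normalised count (reads divided by the library's size factor) of the members in control cells was 41.9, against 16.6 over all listed genes. A count of 0 allows up to 3 reads in a library, or a normalised count of 3.62 and 3.11 in the MCF-10A constriction libraries, and such limits cover counting error only. For genes with 0 reads after transit, the change was therefore given as a bound against 3 reads in each constriction library, a mean normalised count of 3.36. With these genes at their bound, the median log2 change was -2.81 over the members, -2.27 over all listed genes and -2.54 over the protein-coding listed genes. A bound depends on the control mean alone, so these medians are not read as a stronger fall of the members. Bounds of the 26 members ran from at least 2.28-fold to at least 122-fold lower, with a median of 7.72. Over all listed genes at 0 reads they reached 159.8-fold, and *A2ML1* had the third highest control mean of these 2402 genes.

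**Figure D1:**
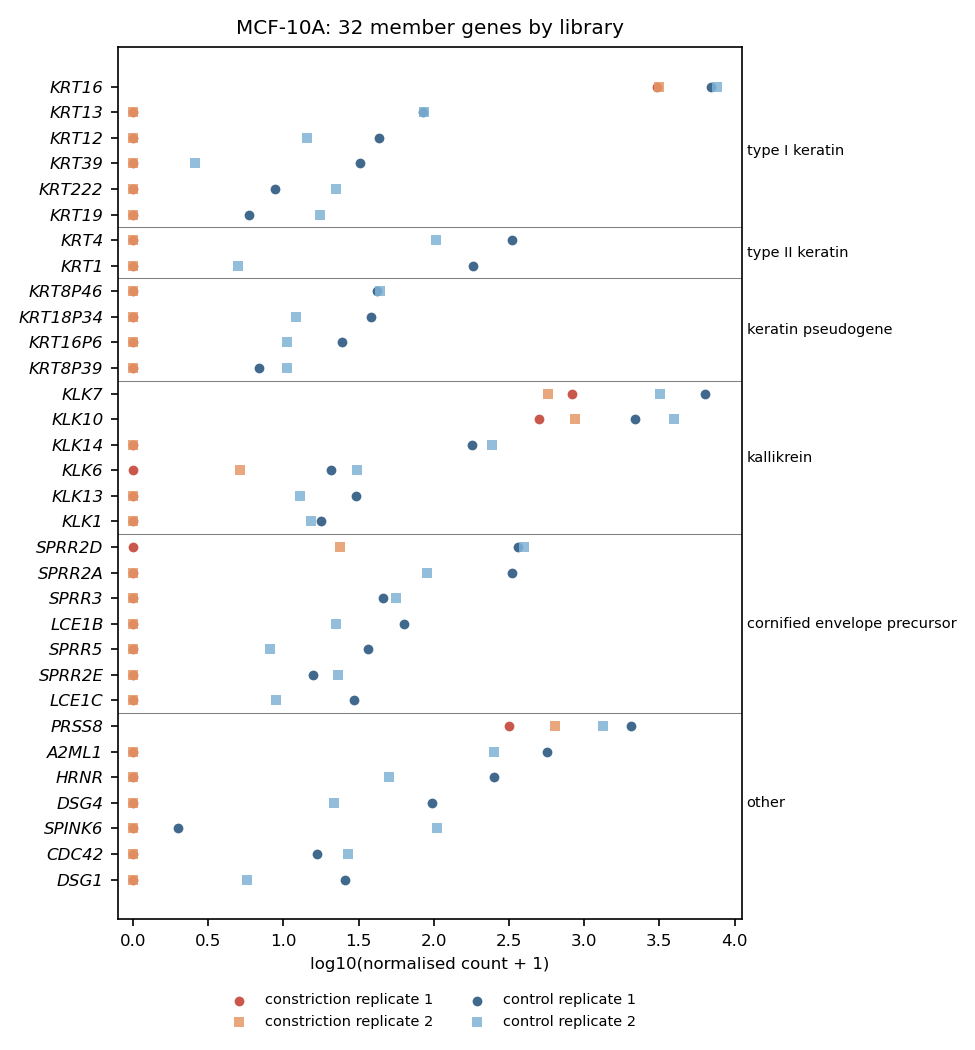
Normalised counts of the 32 members in each MCF-10A library, as log10(normalised count + 1) on the horizontal axis, with a row for each gene and the classes separated by lines. Red and orange symbols mark constriction libraries and blue symbols control libraries. For 26 genes both constriction symbols lie at 0, while *KRT16*, *KLK7*, *KLK10* and *PRSS8* kept reads in every library.

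The promoters are shown for 8 members because these genes all had lower means in transited MCF-10A cells and come from several classes, with reads left (*KLK7*, *KLK10*) or without. RefSeq promoters on GRCh38.p14 were found for 17 of 33 members at 25 starts. Entries were missing for *KRT1*, *KRT13*, *KRT16*, *KRT19*, *KRT222*, *KRT87P*, *KRT8P39*, *KRT8P46*, *KRT16P6*, *KRT18P34*, *KLK1*, *SPRR2D*, *SPRR2E*, *LCE1B*, *PRSS8* and *DSG4*. Each stretch holds the 120 bases before the first listed start site, 5′ to 3′, and capitals mark TATAA or, for the other strand, TTATA.
*KRT4* (chr12:52814117-52814236, minus strand): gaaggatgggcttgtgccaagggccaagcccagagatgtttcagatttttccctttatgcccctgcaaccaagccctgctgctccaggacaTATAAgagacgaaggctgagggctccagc
*SPRR2A* (chr1:153057513-153057632, minus strand): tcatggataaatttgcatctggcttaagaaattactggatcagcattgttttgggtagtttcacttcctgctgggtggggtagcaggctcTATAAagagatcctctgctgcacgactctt
*SPRR3* (chr1:153001629-153001748, plus strand): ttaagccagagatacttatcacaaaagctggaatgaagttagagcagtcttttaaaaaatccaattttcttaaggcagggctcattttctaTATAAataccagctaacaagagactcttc
*A2ML1* (chr12:8822501-8822620, plus strand): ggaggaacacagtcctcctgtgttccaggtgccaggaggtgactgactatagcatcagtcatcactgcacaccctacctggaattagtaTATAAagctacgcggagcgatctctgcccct
*HRNR* (chr1:152224194-152224313, minus strand): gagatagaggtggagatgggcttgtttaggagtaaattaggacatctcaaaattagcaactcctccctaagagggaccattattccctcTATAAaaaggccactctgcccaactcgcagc
*KLK7* (chr19:50983918-50984037, minus strand): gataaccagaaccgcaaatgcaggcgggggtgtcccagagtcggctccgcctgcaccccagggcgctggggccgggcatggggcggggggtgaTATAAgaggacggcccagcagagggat
*KLK14* (chr19:51082857-51082976, minus strand): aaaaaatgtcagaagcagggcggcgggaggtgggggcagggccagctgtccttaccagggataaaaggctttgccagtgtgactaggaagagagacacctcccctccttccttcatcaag
*KLK10* (chr19:51019862-51019981, minus strand): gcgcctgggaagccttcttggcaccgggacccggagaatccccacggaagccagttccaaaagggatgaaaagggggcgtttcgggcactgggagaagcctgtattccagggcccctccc

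In this stretch, TATAA was found on either strand in 11 of the members' 25 promoters, against 10.2% of the 35116 promoters of the table, and all 11 were first listed starts. In the stretches printed above it began 27 bases before the start in *KLK7*, 29 in *KRT4* and *SPRR3*, 30 in *SPRR2A* and 31 in *A2ML1* and *HRNR*. The stretches of *KLK10* and *KLK14* did not hold these letters. The letters TGANTCA, which read the same on both strands and do not overlap the first motif, were found in the stretches of 0 of the 25 promoters and in 3.34% of all promoters. In the whole window of 300 bases, 3 of the 25 promoters held them, those of *SPRR2A*, *SPRR3* and *SPINK6*, against 7.71% of all promoters. A match describes the letters alone.

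Keratins with the most reads in control cells were of different kinds. *KRT16* (chromosome 17, bases 41609778 to 41615899) encodes a type I keratin of activated and wounded epidermis. It drew 2519 and 3029 reads from transited cells, against 7163 and 9641 from control cells. Its normalised count averaged 3086 ± 70.0 (SD, n = 2) in transited cells against 7312 ± 424 (SD, n = 2) without transit, which is -1.24 as a log2 fold change (SE 0.06). With the authors' size factors the groups did not overlap. With TMM factors, computed from the listed genes alone, they did, at 399.9 and 12365 in transited cells against 8994 and 11426 in control cells. In edgeR's quasi-likelihood test its adjusted p was 1 (unadjusted p = 0.333). With the replicate block, where 4 libraries leave few degrees of freedom and spread is pooled over genes, the edgeR adjusted p was 3.82e-23. Over all alternatives the adjusted p ran from 1.59e-33 to 1, and with TMM factors the log2 fold change was -0.68. Of the 100-base windows of *KRT16* transcripts, 4.69% were also found in other genes, among them *KRT14* and *KRT16* pseudogenes, so some of its reads are uncertain.

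The other keratins were at 0 reads in both constriction libraries. *KRT4* and *KRT13* encode the type II and type I partners of non-cornified stratified epithelia such as oral mucosa. *KRT4* (chromosome 12, bases 52806549 to 52814551) drew 335 and 129 reads from control cells and 0 from transited cells, at least 63.9-fold lower. This bound was 30.3-fold without control replicate 1 and 97.6-fold without control replicate 2. Its adjusted p in edgeR's test was 0.114, with values from 0.00351 to 1 over the alternatives. *KRT13* (chromosome 17, bases 41500981 to 41505705) drew 85 and 107 reads from control cells and fell at least 24.9-fold (edgeR adjusted p = 0.0345, 0.00157 to 1 over the alternatives). With the replicate block the adjusted p of *KRT13* was 1 in edgeR's test.

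*KRT1* (chromosome 12, bases 52674736 to 52680407) encodes the type II keratin of suprabasal epidermis. It had 185 and 5 reads in the control libraries, so nearly all its reads came from control replicate 1. The bound was 27.5-fold with all libraries, 1.17-fold without control replicate 1 and 53.9-fold without control replicate 2. Its edgeR adjusted p was 0.0776, with 0.00354 to 1 over the alternatives. *KRT12* (chromosome 17, bases 40860943 to 40867224) encodes the type I keratin of the cornea, and drew 43 and 17 reads from control cells. It fell at least 8.26-fold (edgeR adjusted p = 0.0145, 6.62e-04 to 1 over the alternatives), or 3.99-fold without control replicate 1 and 12.5-fold without control replicate 2. The hair keratin gene *KRT39* (chromosome 17, bases 40958417 to 40966892) drew 32 and 2 reads from control cells. It fell at least 4.90-fold (edgeR adjusted p = 0.0312, 0.00142 to 1 over the alternatives), or 9.32-fold without control replicate 2, and leaving out control replicate 1 left no fold to give. Of the 8 protein-coding keratins, 5 passed edgeR's test, beside 86.9% of all listed genes, and 5 passed with the replicate block, where 54.6% of the listed genes were called lower. The remaining members of the class, *KRT222* and *KRT19*, had 5 to 27 reads in single control libraries, and 32.5% of the windows of *KRT222* were also found in an overlapping gene.

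The 4 keratin pseudogenes of the table, *KRT8P46*, *KRT18P34*, *KRT16P6* and *KRT8P39*, had 0 reads after transit and all 4 passed edgeR's test. Beside them, 86.9% of all listed genes passed and 89.6% had 0 reads in both constriction libraries. Copies of this kind derive from keratin genes, but 0 of the 100-base windows of *KRT8P46*, *KRT18P34* and *KRT8P39* were found in another gene, and 0.479% of those of *KRT16P6* were, in *KRT16P5*. *KRT8P46* (chromosome 4, bases 102728746 to 102730171) drew 42 and 54 reads from control cells and stood at least 12.5-fold lower past the channel. It overlaps *MANBA* on the same strand. *KRT18P34* (chromosome 3, bases 157162663 to 157163932) had 38 and 14 reads and stood at least 7.18-fold lower past the channel, or 3.29-fold without control replicate 1 and 11.1-fold without control replicate 2. *KRT16P6* (chromosome 17, bases 16817983 to 16822579) had 24 and 12 reads and stood at least 4.91-fold lower past the channel, or 2.82-fold without control replicate 1. *KRT8P39* (chromosome 12, bases 68705634 to 68707066) overlaps *NUP107* on the same strand. It had 6 and 12 reads and stood at least 2.28-fold lower past the channel. With the replicate block, 2 of the 4 passed, beside 54.6% of the listed genes called lower. In that fit the edgeR adjusted p was 0.262 for *KRT8P46* and 0.0758 for *KRT8P39*.

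The cornified envelope precursors had few or no reads in transited cells. Their summed normalised count was 0 and 22.8 in the constriction libraries and 876 and 597 in the control libraries. *SPRR2D* (chromosome 1, bases 153039725 to 153041931) held the most reads in control cells, 370 and 499, and the 22 reads of this class after transit, all in constriction replicate 2. The log2 fold change came to -4.94 (SE 1.33, edgeR adjusted p = 1, 0.0731 to 1 over the alternatives). Leaving out constriction replicate 1 gave -3.995 on the log2 scale, and leaving out constriction replicate 2 gave -8.57, where the pseudocount of 1 sets the size. With TMM factors the value was -3.53.

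*SPRR2A* (chromosome 1, bases 153056113 to 153057537) drew 335 and 113 reads from control cells and 0 after transit, at least 62.1-fold lower. Without control replicate 1 this bound was 26.5-fold and without control replicate 2 it was 97.6-fold, and its edgeR adjusted p was 0.117 (0.00387 to 1 over the alternatives). *SPRR3* (chromosome 1, bases 153001747 to 153003856) drew 46 and 70 reads from control cells, which lay close together, and fell at least 14.9-fold (edgeR adjusted p = 0.0143, 6.53e-04 to 1 over the alternatives). *LCE1B* (chromosome 1, bases 152811971 to 152813109) had 64 and 27 reads and fell at least 12.5-fold (edgeR adjusted p = 0.0143, 6.53e-04 to 1 over the alternatives), or 6.34-fold without control replicate 1 and 18.6-fold without control replicate 2. With the replicate block, the edgeR adjusted p was 0.388 for *SPRR3* and 0.304 for *LCE1B*. The other precursors, *SPRR5*, *SPRR2E* and *LCE1C*, had 9 to 36 reads in single control libraries and passed edgeR's test with and without the block. Of the 7 precursors, 5 passed edgeR's test, beside 86.9% of all listed genes. With the block, 3 precursors passed, where 54.6% of the listed genes were called lower. The SPRR2 genes resemble each other, with 20.3% of the 100-base windows of *SPRR2A*, 11.3% of *SPRR2E* and 3.74% of *SPRR2D* found in other genes, so reads may be split between them.

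Among the proteases, *KLK7* and *KLK10* kept reads in both constriction libraries while *KLK14* kept none. *KLK7* encodes a chymotrypsin-like enzyme that cuts proteins of the corneodesmosome. On chromosome 19 from 50976482 to 50984099, it drew 682 and 555 reads from transited cells, against 6497 and 4058 from control cells. The log2 fold change came to -2.77 (SE 0.54), with normalised means of 4782 ± 2232 (SD, n = 2) without transit and 698 ± 175 (SD, n = 2) with it. In edgeR's test its adjusted p was 1 (unadjusted p = 0.0793), with the replicate block the edgeR adjusted p was 4.08e-15, and the alternatives ran from that value to 1. *KLK10*, first described as a gene of normal epithelial cells, lies on chromosome 19 from 51012739 to 51020175. It drew 415 and 842 reads from transited cells, against 2233 and 5026 from control cells, which is -2.16 as a log2 fold change (SE 0.57). Its edgeR adjusted p was 1 (unadjusted p = 0.187), and 0.0117 with the replicate block (0.00213 to 1 over the alternatives). With TMM factors its log2 fold change was -1.32.

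*KLK14* (chromosome 19, bases 51077495 to 51084245) encodes a trypsin-like enzyme that can activate other kallikreins. Its 181 and 306 reads in control cells averaged a normalised 209 ± 45.5 (SD, n = 2). After transit it had 0 reads, at least 62.3-fold lower (edgeR adjusted p = 0.111, 0.00238 to 1 over the alternatives). *KLK6* (chromosome 19, bases 50958631 to 50969673) drew 0 and 4 reads from transited cells, against 20 and 38 from control cells, which is -3.07 as a log2 fold change (SE 1.02, edgeR adjusted p = 0.340, 0.0155 to 1 over the alternatives). Its log2 fold change was -2.33 without constriction replicate 1, -4.69 without constriction replicate 2, -1.98 with TMM factors and -1.53 with a pseudocount of 10. *KLK13* and the kinin-releasing *KLK1* had 15 to 30 reads in single control libraries and 0 after transit, and both passed edgeR's test with and without the replicate block. Of the 6 kallikreins, 2 passed edgeR's test, beside 86.9% of all listed genes. With the block, 4 kallikreins passed, where 54.6% of the listed genes were called lower. The kallikreins other than *KLK7* and *KLK10* summed to a normalised count of 0 and 4.14 in transited cells, against 243 and 298 in control cells.

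*PRSS8* (chromosome 16, bases 31131433 to 31135762) encodes prostasin, a membrane-anchored serine protease of epithelia. It drew 261 and 619 reads from transited cells, against 2083 and 1699 from control cells, which is -1.82 as a log2 fold change (SE 0.57, edgeR adjusted p = 1, 0.134 to 1 over the alternatives). The log2 fold change was -1.40 without constriction replicate 1, -2.42 without constriction replicate 2 and -0.85 with TMM factors. *A2ML1* (chromosome 12, bases 8822472 to 8887001) encodes a protease inhibitor related to alpha-2-macroglobulin that is made in the upper epidermis. With 581 and 315 reads in control cells and 0 after transit, it had the largest bound of the members, at least 122-fold lower (edgeR adjusted p = 0.0666, 0.00191 to 1 over the alternatives). The bound was 74.0-fold without control replicate 1 and 169-fold without control replicate 2.

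*HRNR* (chromosome 1, bases 152212082 to 152224193) encodes hornerin, a filaggrin-like protein of the cornified envelope, and lies opposite *FLG-AS1*, so its reads are uncertain. It had 257 and 62 reads in MCF-10A control cells and 0 after transit, at least 44.7-fold lower (edgeR adjusted p = 0.131, 0.00415 to 1 over the alternatives), with 14.6-fold without control replicate 1 and 74.9-fold without control replicate 2. *DSG4* (chromosome 18, bases 31376777 to 31414912) encodes a desmosomal cadherin. It drew 99 and 26 reads from control cells and fell at least 17.5-fold (edgeR adjusted p = 0.0145, 6.60e-04 to 1 over the alternatives), or 6.11-fold without control replicate 1 and 28.8-fold without control replicate 2. With the replicate block its edgeR adjusted p was 0.827. *SPINK6*, which encodes an inhibitor of kallikreins, drew 1 and 131 reads from control cells, so that leaving out control replicate 2 left no fold to give, and its edgeR adjusted p of 0.0306 became 1 with the block. Without control replicate 1 its bound of 15.5-fold was 30.8-fold.

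**Figure D2:**
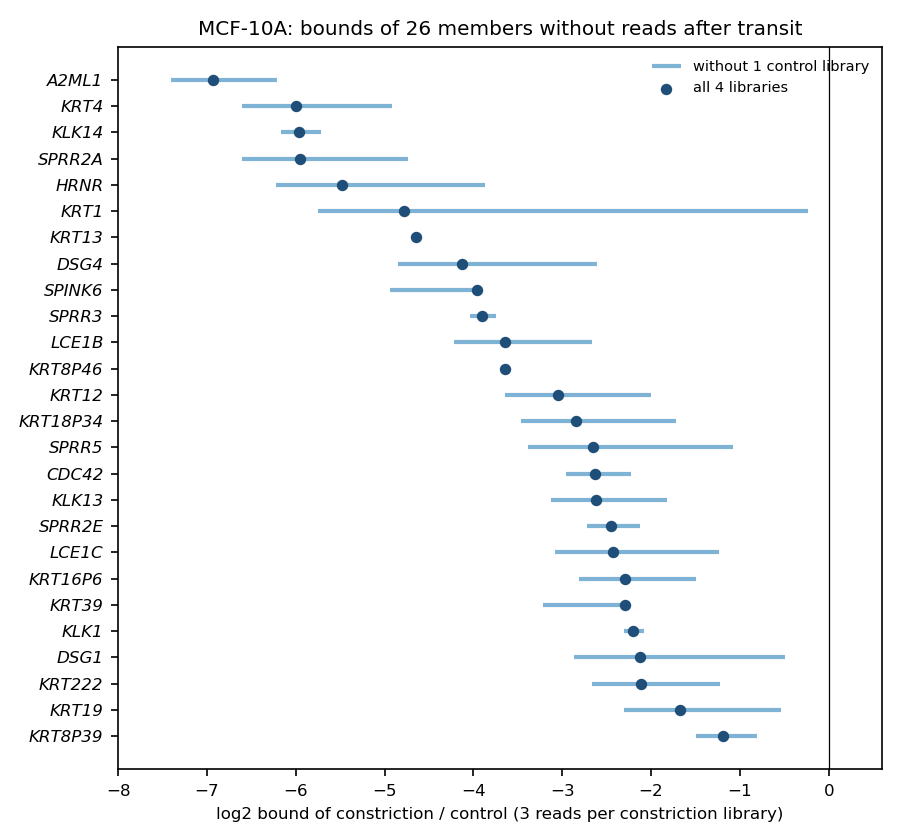
Bounds on the log2 change of the 26 MCF-10A members without reads after transit, against 3 reads in each constriction library. Points use all 4 libraries and lines span the bounds without control replicate 1 or without control replicate 2. The line of *KRT1* reaches from -5.75 to -0.23, and for *SPINK6* and *KRT39* 1 end could not be computed.

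The members were also grouped by their control mean. Which genes the table lists depends on both the control mean and the reads left, so the shares by level describe the listed genes and nothing is read from them. All 4 members with a control mean above 1000, *KRT16*, *KLK7*, *KLK10* and *PRSS8*, had reads in both constriction libraries, and 0 of the 10 listed genes at that level lacked reads in both. Their median log2 fold change was -1.99, against -1.81 over the 10 genes. Of the 14 members with a control mean between 10 and 30, 13 had 0 reads after transit, beside 95.1% of the listed genes at that level. Between 30 and 100 it was 7 of 7 members beside 87.8%, and between 100 and 300 it was 4 of 4 beside 67.3%. These 4 were *KRT4*, *KLK14*, *SPRR2A* and *HRNR*. Between 300 and 1000 it was 1 of 2 members, *A2ML1* and not *SPRR2D*, beside 50.0% of 12 genes.

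**Figure D3:**
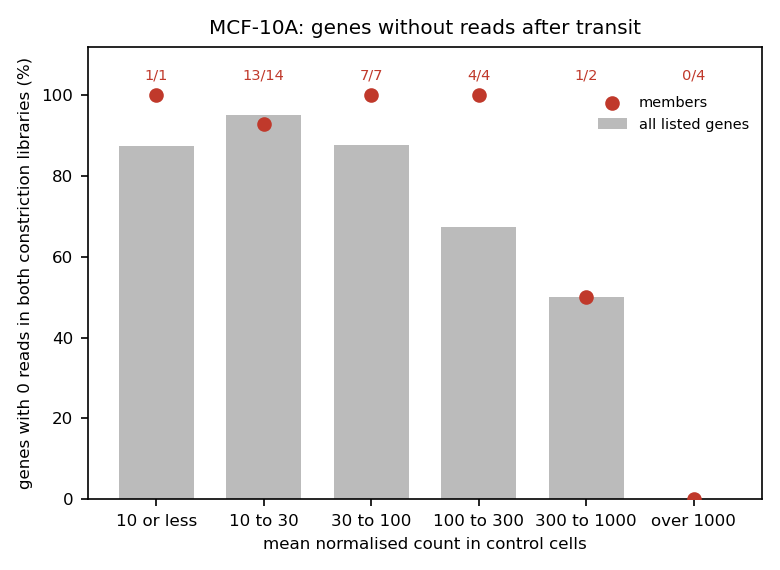
Share of genes with 0 reads in both MCF-10A constriction libraries, by mean normalised count in control cells. Grey bars stand for all listed genes and red points for members, with the number of members at 0 reads over the number of members above each bar. The share of all listed genes falls from 95.1% between 10 and 30 to 0 above 1000.

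The 4 most abundant members carried most of the reads. Their normalised counts summed to 4673 and 5222 in transited cells, against 17598 and 16126 in control cells. The other 28 members summed to 0 and 26.9 in transited cells, against 2864 and 1663 in control cells. Per length, the level in control cells was highest for *KRT16*, with 80.1 and 83.9 FPKM, followed by *KLK7* with 73.9 and 35.9 FPKM and *KLK10* with 16.0 and 28.1 FPKM. The 2 control libraries lay further apart for *KLK7* than its mean lay from that of *KRT16*. After transit, the FPKM was 34.0 and 34.5 for *KRT16* and 9.35 and 6.42 for *KLK7*. A mean above 1 FPKM in control cells was reached by 12 members, and 7 of these had 0 reads after transit.

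**Figure D4:**
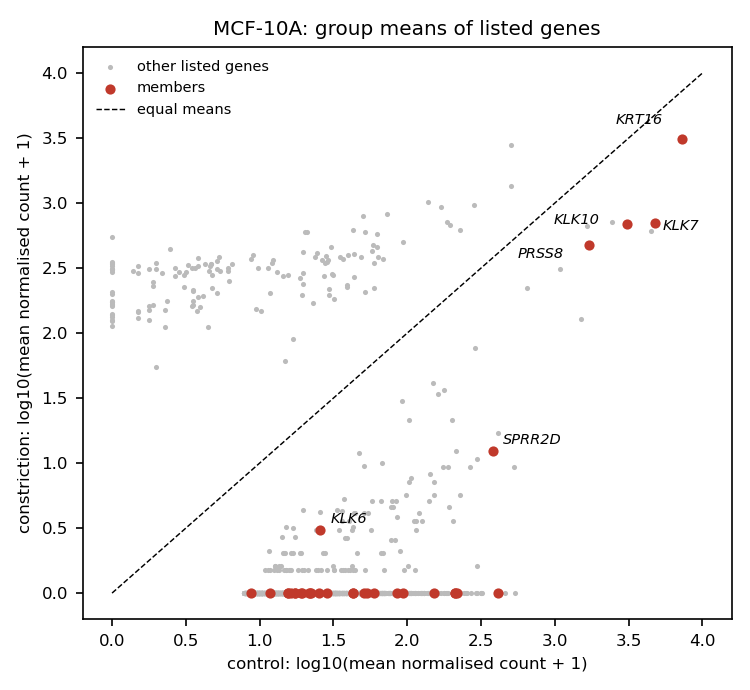
Mean normalised count of each listed MCF-10A gene in control cells (horizontal axis) and after transit (vertical axis), as log10(mean + 1). Members are red, other listed genes grey, and the dashed line marks equal means. The members lie below the line, 26 of them at 0 after transit.

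The control libraries differed for some members. They were over 5-fold apart for 5 of 32 members, *KRT1*, *KRT39*, *SPINK6*, *HRNR* and *DSG1*, and over 5-fold apart or with 1 library at 0 for 13.5% of the listed genes. *KRT1* and *DSG1*, 2 of 8 markers of suprabasal keratinocytes, were the listed ones, and their summed normalised count was 0 in both constriction libraries and 206 and 8.69 in the control libraries. *KRT1* was the most abundant of them. Of the other marker lists, 1 of 5 luminal epithelial (*KRT19*, summed normalised count 4.89 and 16.6 in control cells), 1 of 6 leukocyte (*ITGAM*, 121 and 5.53) and 1 of 3 endothelial markers (*PECAM1*, 69.5 and 37.9) were listed. Like *KRT1* and *DSG1*, each had 0 reads in both constriction libraries, as did 89.6% of all listed genes. The part of cells of these types in the results was not tested. None of the 4 basal epithelial, 4 mesenchymal, 4 erythroid and 5 fibroblast markers was listed, and their levels were not analysed here.

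Most protein-coding members lay in gene clusters of their families, while the 4 keratin pseudogenes lay outside them. The 8 members of the epidermal differentiation complex spanned 0.894 megabases of chromosome 1, where 37 protein-coding genes are annotated, and these 8 were the listed ones. In the 0.265 megabases of chromosome 19 between *KLK1* and *KLK14*, 6 of 16 coding genes were listed. The 6 type I keratins spanned 0.961 megabases of chromosome 17 with 62 coding genes, and *KRT1* and *KRT4* spanned 0.140 megabases of chromosome 12 with 5. In all, 8 of 55 annotated coding keratin genes, 6 of 15 kallikreins, 5 of 11 SPRR genes, 2 of 18 LCE genes and 0 of 13 clade B serpins were listed in MCF-10A. Genes outside the table were not analysed here. Of the 33 members, 18 overlap another annotated gene, 6 of them on the same strand. For 4 of the 33, over 10% of the 100-base windows were also found in other genes, and these 4 are counted with the members without reads after transit. The protocol names a directional and a non-directional library without saying which was made, so it is uncertain which gene some reads of overlapping pairs belong to.

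The genes that work with the members were counted from lists. Of 48 cornification partners, 7 were listed in MCF-10A, 4 of them members. All 7 had lower means after transit, as did 94.5% of all listed genes. Of the 7 partners, 4 passed edgeR's test, *DSG1*, *DSG4*, *S100A12* and *ALOX12B*, beside 86.9% of all listed genes. *S100A7* (chromosome 1, bases 153457744 to 153460701) encodes psoriasin, a calcium-binding antimicrobial protein. It drew 274 and 18 reads from control cells and 0 after transit (edgeR adjusted p = 0.150). *ALOX12B*, a lipoxygenase gene of the skin barrier, drew 8 and 10 reads from control cells and 0 after transit, and *S100A12* had 53 and 2. With the replicate block, the edgeR adjusted p was 0.104 for *S100A12* and 0.0751 for *ALOX12B*. Of 9 inhibitors and targets of kallikreins, 3 were listed and all 3 passed edgeR's test, again beside 86.9% of all listed genes. *WFDC5* had 28 and 19 reads and *WFDC12* 16 and 16 reads in control cells, and both had 0 after transit. Both genes also passed with the block, beside 54.6% of the listed genes called lower. Both encode small secreted protease inhibitor-like proteins. Of 11 luminal epithelial genes, *KRT19* and *CLDN4* were listed and *KRT19* passed, beside 86.9% of all listed genes. *CLDN4*, a tight junction gene, drew 819 and 427 reads from transited cells, against 2589 and 2961 from control cells, which is -1.77 as a log2 fold change (SE 0.55, edgeR adjusted p = 1). Of 11 basal epithelial genes, 0 were listed.

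In MDA-MB-231, the members had higher levels after transit. *KRT87P*, a hair keratin pseudogene on chromosome 12 from 52250466 to 52258867, drew 146 and 296 reads from transited cells, against 48 and 72 from control cells. Its normalised count averaged 208 ± 92.5 (SD, n = 2) in transited cells against 61.4 ± 0.728 (SD, n = 2) without transit, which is 1.74 as a log2 fold change (SE 0.45). *KRT87P* overlaps *KRT7* and *KRT86* on the opposite strand, and 4.11% of its 100-base windows were found in other keratin genes, so its reads are uncertain. *HRNR* drew 288 and 411 reads from transited cells, against 85 and 204 from control cells. Its normalised count averaged 331 ± 69.5 (SD, n = 2) in transited cells against 142 ± 47.8 (SD, n = 2) without transit, which is 1.22 as a log2 fold change (SE 0.40). For both genes the constriction libraries lay above the control libraries, as for 61.9% of the 381 listed genes.

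With edgeR's quasi-likelihood test, 0 of 2 members passed in MDA-MB-231, beside 0.262% of the listed genes called higher. Both had an unadjusted p under 0.05, as did 358 of the 381 listed genes. DESeq2 called 0 of the 2 members and 8 of the listed genes, and limma called 0 of either. Both passed when adjusted over the genes of the table alone, as did 354 of the 381. With the replicate block, both passed (adjusted p = 0.00731 for *KRT87P* and 0.00489 for *HRNR* from edgeR, and up to 1 over the alternatives), beside 12.9% of the listed genes called higher. Of the context lists, *HRNR* was the single gene listed in MDA-MB-231. In LM2, 0 members and 0 genes of these lists were found among 97 listed genes, so their levels in LM2 were not analysed here.

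**Figure D5:**
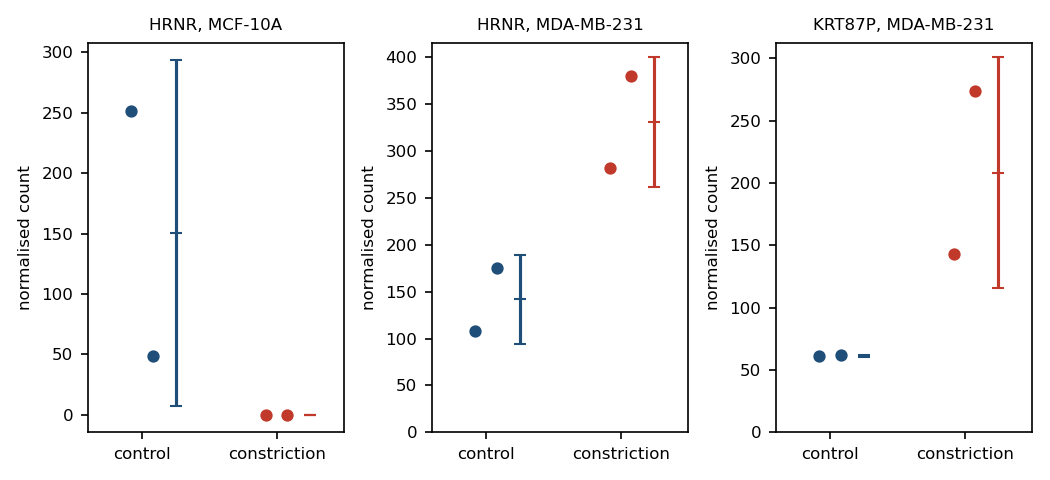
Normalised counts of *HRNR* in MCF-10A and MDA-MB-231 and of *KRT87P* in MDA-MB-231, each axis starting at or just below 0. Points are single libraries, and the bars beside them show the mean and SD (n = 2). *HRNR* lies at 0 after transit in MCF-10A and above both control libraries in MDA-MB-231, in tables that were normalised separately.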

How the data were processed

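RNA sequencing of 12 libraries was analysed from tables deposited for each cell line. Per the labels and the study's methods, the authors filtered reads with fastp, aligned them with HISAT2 (version 2.0.5) to GRCh38 and counted them per gene with featureCounts (version 1.5.0-p3), and these are the deposited counts. For each cell line, the authors scaled them by size factors, 1 for each library (DESeq2, version 1.20.0), to the deposited normalised counts (signal), and computed FPKM from counts and gene lengths. Further deposited columns hold the authors' log2 fold changes, p-values and adjusted p-values, and the enrichment lists hold their term statistics. None of these were used. From the enrichment list, only the member genes of the keratinization term were taken. The members, lists, tests and alternatives were chosen with earlier results of these data known.

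The 2680, 381 and 97 listed genes all matched GENCODE release 29 by identifier, position and name. Counts were tested within each cell line with edgeR's quasi-likelihood test (version 4.0.16, R 4.3.3), two-sided, on constriction and control libraries, using the authors' size factors. Only listed genes entered the fit, so its spread was estimated from genes selected in the same libraries. P-values were Benjamini-Hochberg adjusted over 58735 annotated genes, with genes outside the table at a p of 1, and called under 0.05. The fit was tested on simulated data in which fewer genes changed, in both directions, so that test does not cover the calls made here. Log2 fold changes subtract log2(mean normalised count + 1) of control from that of transited cells, with standard errors (SE) from the spread of the 2 libraries per group. Where both constriction libraries had 0 reads, it is a bound against 3 reads per library. Genes named with values were every member with reads after transit, the 4 members per class with the highest control mean in MCF-10A, and every member in MDA-MB-231. Others are given by counts and ranges. *SPINK6* and the named genes of the context lists were chosen after their values were seen. Alternatives were DESeq2 (version 1.42.0), limma (version 3.58.1) with pseudocounts of 1 and 10, TMM factors, a minimum mean of 10, adjustment over the table alone, a replicate block, pseudocounts of 0.5 and 10 for fold changes, and each library left out. Replicates were compared by chi-square over genes and differed by more than sampling noise in every group.

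The replicate number was treated as pairing a control with a constriction library because the study lists both under each replicate experiment. Over all listed genes, their deviations from the group means correlated at -0.0427 for MCF-10A, 0.0827 for MDA-MB-231 and -0.0317 for LM2. Over genes with a mean of at least 10 the values were -0.110, 0.159 and 0.0480. These are across genes, which are not independent replicates. For 1 LM2 constriction sample, title (replicate 2) and description (replicate 1) disagree. The title was used, and the LM2 values that rest on the replicate number depend on it.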

Additional observations from a re-analysis of the deposited data

Results flagged for a closer look

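*HRNR* stood lower past the constriction in MCF-10A and higher in MDA-MB-231. In MCF-10A its control libraries held 257 and 62 reads against 0 in both constriction libraries, at least 44.7-fold lower, or 14.6-fold without control replicate 1 and 74.9-fold without control replicate 2. In MDA-MB-231 its log2 fold change was 1.22, with both constriction libraries above both control libraries, as for 61.9% of the genes listed there. In MCF-10A, 94.5% of the listed genes had lower means, so in each line *HRNR* went the way of most listed genes. *HRNR* passed edgeR's test in neither line (adjusted p = 0.131 in MCF-10A and 1 in MDA-MB-231). With the replicate block it passed in MDA-MB-231 (edgeR adjusted p = 0.00489), beside 12.9% of the listed genes called higher, and not in MCF-10A. With the replicate numbers crossed, *HRNR* passed in neither line. The difference between the lines itself was not tested. *HRNR* lies opposite *FLG-AS1*, so without a stated strand setting its reads are uncertain.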

How the results depend on the processing

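All 32 MCF-10A members kept a lower mean after transit with TMM factors and without each of the 4 libraries, and 26 to 28 had 0 reads when 1 constriction library was left out. The number of MCF-10A members called in edgeR's test was 20. It was 24 with DESeq2, 27 when adjusted over the table alone, 16 with the replicate block, 9 with a minimum mean of 10, 8 with limma and a pseudocount of 1, and 0 with limma and a pseudocount of 10 or with TMM factors. Without 1 library it ran from 0 to 2, and at an unadjusted p under 0.05 it was 27 with all libraries. Of the 20 members called, 13 were also called with the replicate block and 15 with DESeq2. With TMM factors, also tried after seeing the data for this count, the groups did not overlap for 29 of 32 members and 96.2% of listed genes. A fit with crossed numbers, chosen after seeing the data, called 3 members, *KRT16*, *KLK7* and *KLK10*, and 5 genes in all. These 3 members also passed with the replicate block, so their calls with it were not tied to the pairing. In each fit that left out a library, a lone sample was assumed to vary like the other group.

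Over all 2680 listed MCF-10A genes, 2570 had an unadjusted p under 0.05. The number called was 2329, 0 to 4 without 1 library, 2565 when adjusted over the table alone, 1469 with DESeq2, 1463 with the replicate block, 1015 and 0 with limma at the 2 pseudocounts, 0 with TMM factors and 801 with the minimum mean. TMM factors of the listed genes were 6.30 and 0.245 for the MCF-10A constriction libraries, against authors' size factors of 0.830 and 0.966. With the pseudocount of 1 used also at 0 reads, the listed genes' log2 fold changes shifted by a median of -0.44. Bounds and fold changes of the MCF-10A members moved toward 0, from -6.93 to -6.44 for *A2ML1* and from -1.24 to -0.68 for *KRT16*. In MDA-MB-231 and LM2 the median of the listed genes' shifts was -0.39 and 0.14. The cause of these differences was not tested.

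In MDA-MB-231, 0 of 2 members were called, and 2 with the replicate block or adjusted over the table alone, where 354 of the 381 listed genes were called. Over all listed genes, the replicate block raised the calls from 1 to 72 in MDA-MB-231 and from 0 to 28 in LM2. With the numbers crossed, chosen after seeing the data, 0 members and 8 of the 381 genes were called in MDA-MB-231 (2 members at an unadjusted p under 0.05), so the members' calls with the block depend on the pairing. The labels of 1 LM2 sample give 2 replicate numbers, and crossed, 0 of the 97 LM2 genes were called (8 at an unadjusted p under 0.05). LM2 has no members, so its member counts were 0 in each fit. Without 1 library, 21 of 32 MCF-10A members moved by over 1.5 times, 18 of them bounds. With 2 libraries per group and a floor of 3 reads, folds of genes with few control reads are limited by depth.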
